A study of Mus musculus with 47 samples.

Results

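Tstd1, Tceal8, Mmd2, Zak and Kbtbd11 are 5 of the 20320 genes in a count table of mouse liver RNA, named because their response to a high-fat diet differed among 3 inbred strains. They were chosen by the diet changes measured in these same libraries, so those changes are given as descriptions with no test. The mice were NZO/HlLtJ, the New Zealand Obese strain, CAST/EiJ, a wild-derived strain, and C57BL/6J, the common laboratory strain. All were labelled wild type with no other treatment. Males and females of each strain ate a 44% fat, high-sugar diet with fiber or, as controls, a 10% fat diet with fiber, from 6 weeks of age, and liver was taken at 15 weeks. The 12 groups of strain, sex and diet had 4 libraries apiece, and only the male CAST/EiJ control group had 3, so 24 libraries came from 44% fat and 23 from 10% fat. The series asks how genotype and diet act together in mouse models of type 2 diabetes.

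The 5 genes belong to unrelated families. Tstd1 encodes a small protein with a rhodanese domain, the fold that carries sulfur from thiosulfate or persulfides to an acceptor. Zak, now also called Map3k20, encodes a mixed-lineage kinase that senses stalled and collided ribosomes and passes the signal to the p38 and JNK kinases. Mmd2, also called Paqr10, encodes a Golgi membrane protein of the progestin and adipoQ receptor family. Tceal8 encodes a small nuclear protein of the family named after transcription elongation factor A, which lies in a cluster on the X chromosome. Kbtbd11 encodes a kelch-repeat BTB protein, and kelch-BTB proteins are known as adaptors that bring substrates to the Cullin 3 ubiquitin ligase.

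On GRCm38, with GENCODE M21 gene models, Tstd1 (ENSMUSG00000103711) runs along the plus strand at chr1:171418872-171420352 and Zak (ENSMUSG00000004085) along the plus strand at chr2:72285637-72442610. Mmd2 (ENSMUSG00000039533) is on the minus strand at chr5:142562358-142608800, Kbtbd11 (ENSMUSG00000055675) on the plus strand at chr8:15011025-15033333 and Tceal8 (ENSMUSG00000051579) on the minus strand at chrX:136168984-136172342. In these gene models 2 members share ground with another gene of the same count table. The first 271 bases of Tstd1 overlap the end of Usf1 on the same strand, and Gm37844 lies on the opposite strand inside Kbtbd11 over 4097 bases. The sources used here do not say whether counting used strand, so reads of Kbtbd11 and Gm37844 may be mixed. The same holds for 5830468F06Rik, on the opposite strand inside Kbtbd11 over 3816 bases, which is not among the genes of the count table used here. Zak spans 2 short genes on its own strand, Zakit over 308 bases and Rpl36a-ps4 over 296 bases, which are not in that table either.

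No promoter of Kbtbd11 was in the sources used here, and that of Tstd1 meets another gene, so neither is shown. The promoters of Tceal8, Mmd2 and Zak are shown, in stretches that meet no other gene. They come from the RefSeq table of GRCm38.p6, on the strand of the gene, 5′ to 3′, without the bases that GENCODE M21 places inside a gene. Capitals mark matches, on either strand, to CCAAT or to GGGCGG, the GC box. Tceal8 stretches over chrX:136172343-136172501, Mmd2 over chr5:142608801-142609002 and Zak over chr2:72285387-72285636.
Tceal8: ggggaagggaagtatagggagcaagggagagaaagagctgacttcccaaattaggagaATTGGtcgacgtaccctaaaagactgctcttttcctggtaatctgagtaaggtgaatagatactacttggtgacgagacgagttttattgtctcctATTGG
Mmd2: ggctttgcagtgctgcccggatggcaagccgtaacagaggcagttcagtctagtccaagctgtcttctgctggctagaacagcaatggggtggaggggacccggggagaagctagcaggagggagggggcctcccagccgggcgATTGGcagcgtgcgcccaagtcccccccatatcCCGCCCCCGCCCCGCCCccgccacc
Zak: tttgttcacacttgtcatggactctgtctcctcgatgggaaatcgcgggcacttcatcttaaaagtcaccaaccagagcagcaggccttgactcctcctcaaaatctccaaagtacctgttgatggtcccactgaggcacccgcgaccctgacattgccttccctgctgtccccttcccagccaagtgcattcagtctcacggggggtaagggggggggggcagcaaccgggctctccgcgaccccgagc

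Letters were searched in the 250 bases before each RefSeq start, on both strands, and the same search was run over 32851 promoters. CCAAT occurred 2 times before Tceal8, 192 and 96 bases from the start, 1 time before Mmd2 at 106 bases and 1 time before Tstd1 at 46 bases, against 33.8% of all promoters with at least 1 match. GGGCGG occurred 3 times before Mmd2 and 1 time before Tceal8, at 46 bases, in the stretch not printed, against 32.7% of all promoters. TATAAA occurred before Tstd1 at 97 bases, against 12.4% of all promoters. CACGTG, found in 6.02% of all promoters, and AGGTCA, a nuclear receptor half-site found in 14% of them, were in none of the 4 windows searched. Zak held none of the 5 letter sets. These are matches of letters, and nothing is read from them about binding.

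Libraries held 21.6 M to 47.8 M counts. The members were covered by 50 to 545 expected counts per library for Tstd1, 76 to 1226 for Tceal8, 45 to 2422 for Mmd2, 204 to 1008 for Zak and 18 to 516.1 for Kbtbd11, so Kbtbd11 is the least precise. All 5 passed the filter on low counts and were among the 16650 genes tested. Alb, the defining hepatocyte gene, stood at 27700 to 109000 CPM (counts scaled to the library total) in all 47 libraries, and 47 of 47 libraries matched their sex label. The pancreatic acinar gene Cpa1 reached at least 20 CPM in 5 libraries, namely replicates 1 and 2 of the C57BL/6J females on 44% fat, replicates 2 and 3 of the C57BL/6J males on 10% fat and replicate 2 of the CAST/EiJ females on 44% fat. Results on the members are given without these libraries where a call or a direction depends on them. No label states that libraries came from different animals, so p-values here measure the spread between these libraries.

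The diet response of the members differed from gene to gene and from strain to strain. Kbtbd11 was higher on 44% fat in every strain, 5.27-fold in NZO/HlLtJ, 1.39-fold in CAST/EiJ and 1.82-fold in C57BL/6J. Mmd2 was 2.05-fold higher in NZO/HlLtJ and 3.41-fold higher in C57BL/6J, and 1.12-fold lower in CAST/EiJ. Tceal8 was 1.45-fold and 1.52-fold higher on 44% fat in NZO/HlLtJ and C57BL/6J and 1.54-fold lower in CAST/EiJ. Zak was 1.54-fold higher in NZO/HlLtJ, 1.12-fold higher in C57BL/6J and 1.26-fold lower in CAST/EiJ. Tstd1 was the member that was higher in C57BL/6J alone, by 1.58-fold, and it was 1.77-fold lower in NZO/HlLtJ and 1.58-fold lower in CAST/EiJ.

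Over all 16650 genes tested with edgeR, diet was called for 5.64% in NZO/HlLtJ, 0.895% in CAST/EiJ and 0.991% in C57BL/6J. A difference of the diet change among the 3 strains was called for 0.048%, which is 8 genes, and all 5 members are among them. They were chosen on that contrast, so nothing is read from these shares. The sign of the diet change was the same in males and females for every member in every strain. In bulk liver, fewer cells of a type and less RNA per cell cannot be told apart. Markers of hepatocytes moved beside the diet in part: 3 of 6 were called lower on 44% fat in NZO/HlLtJ and 1 of 6 in CAST/EiJ. Their summed level ran over 57000 to 99300 CPM on 44% fat and 78500 to 128000 CPM on 10% fat in NZO/HlLtJ. In CAST/EiJ it ran over 40200 to 92800 CPM on 44% fat and 50500 to 107000 CPM on 10% fat, and in C57BL/6J over 78100 to 96900 CPM on 44% fat and 71500 to 104000 CPM on 10% fat. No hepatocyte marker was at 0 throughout a group, and the part of hepatocyte content in the members' values was not tested.

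**Figure D1:**
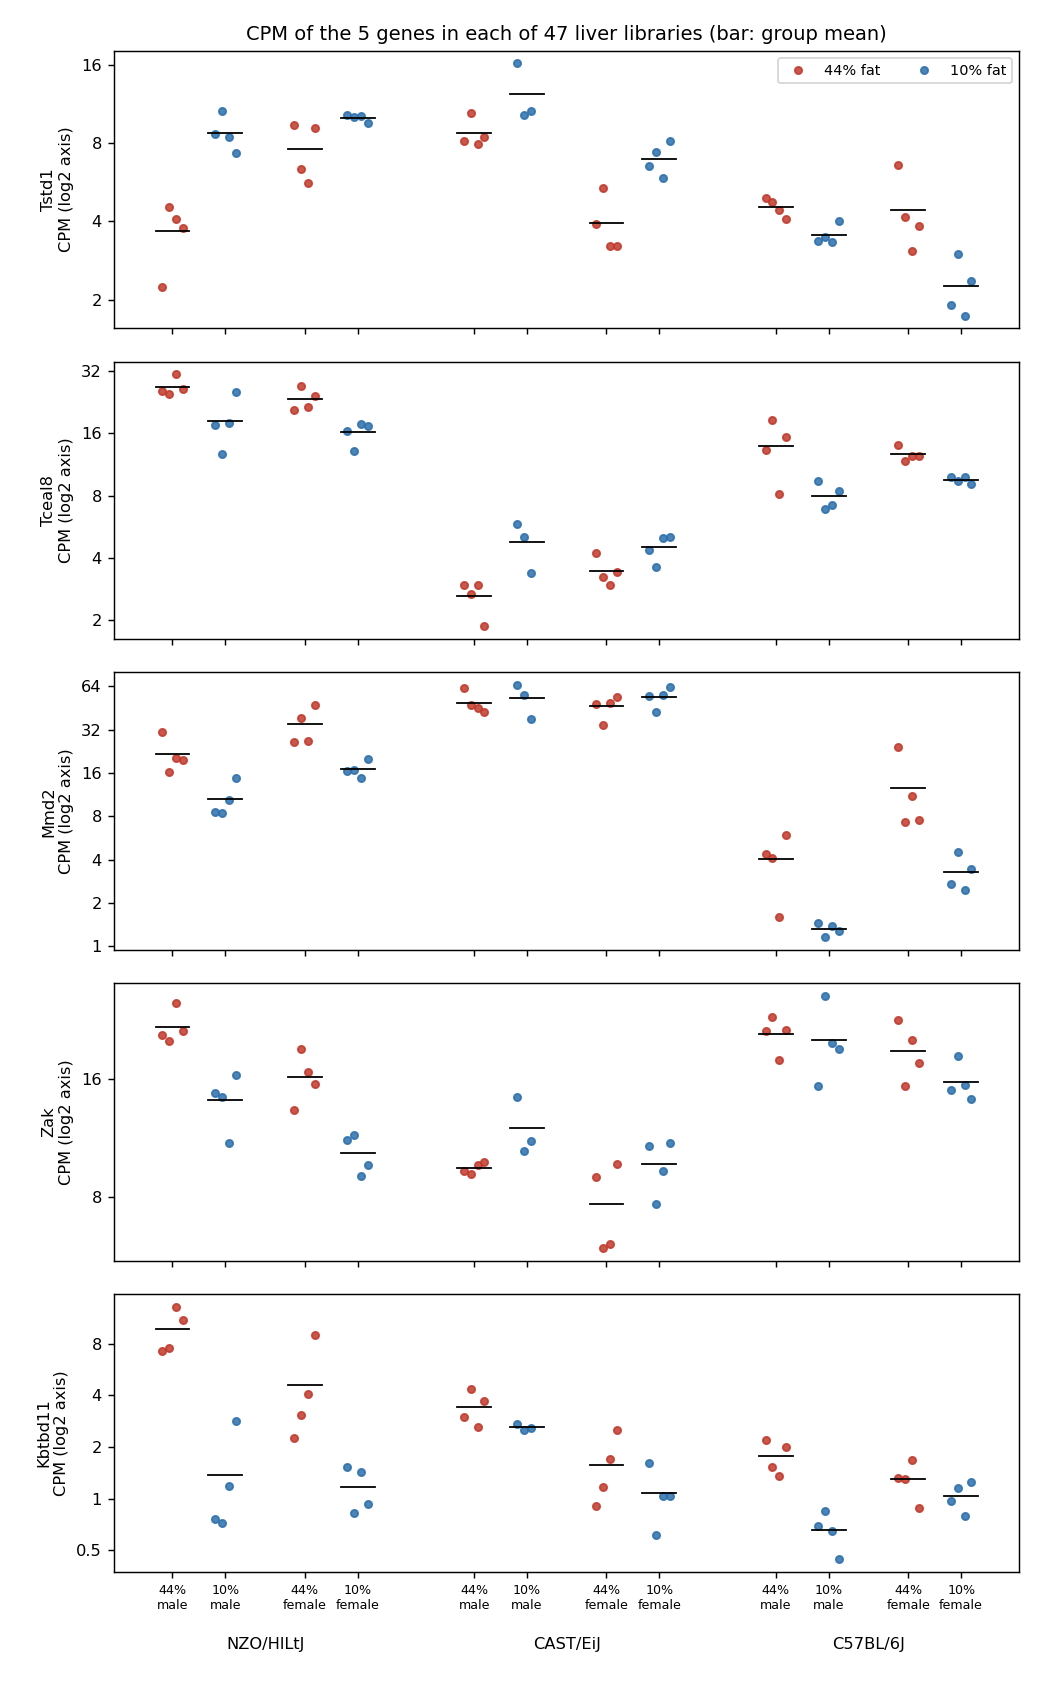
CPM of each member in each of the 47 libraries (log2-scaled vertical axis), by strain, sex and diet, with 44% fat left of 10% fat and a bar at each group mean. Kbtbd11 in NZO/HlLtJ males runs from 7.25 to 13.1 CPM on 44% fat and from 0.725 to 2.82 CPM on 10% fat, and Mmd2 in CAST/EiJ lies between 34.4 and 65.5 CPM in all 15 libraries.

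Kbtbd11, the kelch-BTB gene, gave the widest separation of diets in NZO/HlLtJ. Kbtbd11 in NZO/HlLtJ males stood at 7.25, 7.55, 13.1 and 10.9 CPM on 44% fat, against 0.758, 0.725, 1.19 and 2.82 CPM on 10% fat. In NZO/HlLtJ females it stood at 2.25, 3.08, 4.09 and 8.98 CPM on 44% fat, against 1.53, 0.82, 1.42 and 0.925 CPM on 10% fat. In neither sex did the diets overlap, and over both sexes the mean was 7.15 ± 3.83 CPM on 44% fat and 1.27 ± 0.696 CPM on 10% fat (SD, n = 8 each), a log2 change of 2.40 (SE 0.26). Kbtbd11 in CAST/EiJ males stood at 3, 4.32, 2.61 and 3.72 CPM on 44% fat, against 2.73, 2.51 and 2.58 CPM on 10% fat. In CAST/EiJ females it stood at 0.906, 1.17, 1.69 and 2.51 CPM on 44% fat, against 1.61, 0.614, 1.03 and 1.04 CPM on 10% fat. The diets overlapped in both sexes of CAST/EiJ, and the log2 change of 0.47 (SE 0.27) had a 95% interval of -0.07 to 1.02.

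Kbtbd11 in C57BL/6J males stood at 2.18, 1.52, 1.35 and 1.99 CPM on 44% fat, against 0.696, 0.847, 0.648 and 0.444 CPM on 10% fat. In C57BL/6J females it stood at 1.32, 1.3, 1.67 and 0.878 CPM on 44% fat, against 0.969, 1.15, 0.792 and 1.25 CPM on 10% fat. The diets were apart in the males and overlapped in the females, with log2 changes of 1.42 and 0.31 in the 2 sexes. Labels of the libraries fall into 3 runs of consecutive sample identifiers, which may mark batches. Within those runs the C57BL/6J change of Kbtbd11 was 1.01, 0.70 and 0.52, and the CAST/EiJ change was -0.33, 0.77 and 0.88, so its direction in CAST/EiJ differed in 1 run. In NZO/HlLtJ only the first run holds both diets of a sex, where the change was 2.21. Each other run holds NZO/HlLtJ males of a single diet and females of the opposite diet. In those libraries a diet change that differs between the sexes cannot be told apart from the run.

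Mmd2, the Golgi membrane gene, had its largest diet change in C57BL/6J, where it was least expressed. Mmd2 in C57BL/6J males stood at 4.37, 4.12, 1.59 and 5.96 CPM on 44% fat, against 1.44, 1.15, 1.38 and 1.28 CPM on 10% fat. In C57BL/6J females it stood at 24.1, 7.33, 11 and 7.59 CPM on 44% fat, against 2.71, 4.52, 2.46 and 3.43 CPM on 10% fat. The diets did not overlap in either sex, and the log2 change was 1.77 (SE 0.24), with 2.35, 1.60 and 1.16 in the 3 identifier runs. The 24.1 CPM library, replicate 1 of the C57BL/6J females on 44% fat, stood apart in some cell type markers. The 5 markers of macrophages other than Kupffer cells summed to 49.1 CPM there, against 2.77 to 3.58 CPM in the group's other 3 libraries. Gpnmb led that sum at 26.6 CPM, against at most 4.9 CPM in the other 46 libraries. Ly6c2 of the same list, at 2.09 CPM, lay below the highest other library (2.34 CPM). Of the stellate cell markers, the collagen gene Col1a1 stood at 81.6 CPM, against at most 15.8 CPM, and Des at 5.51 CPM, against at most 5.15 CPM. Dcn, Lrat and Reln lay below the highest of the other libraries. Cpa1 was also highest in this library, at 82 CPM. Without that library the Mmd2 change was 1.50.

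Mmd2 in NZO/HlLtJ males stood at 30.8, 16.2, 20.5 and 19.7 CPM on 44% fat, against 8.51, 8.42, 10.4 and 14.7 CPM on 10% fat. In NZO/HlLtJ females it stood at 26.3, 38.9, 26.9 and 47.2 CPM on 44% fat, against 16.5, 16.9, 14.7 and 20.1 CPM on 10% fat. Again the diets did not overlap in either sex, the log2 change was 1.04 (SE 0.21), and males and females gave 1.05 and 1.03. Mmd2 in CAST/EiJ males stood at 62.4, 47.7, 45.2 and 42.7 CPM on 44% fat, against 65.5, 55.7 and 37.9 CPM on 10% fat. In CAST/EiJ females it stood at 48.6, 34.4, 49 and 53.8 CPM on 44% fat, against 55.1, 42.4, 55.5 and 63 CPM on 10% fat. These values overlapped in both sexes, with a log2 change of -0.16 (95% interval -0.59 to 0.27), at the highest level of Mmd2 among the 3 strains.

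Tceal8, the X-linked elongation factor-like gene, had diet changes of opposite sign in CAST/EiJ and in the other strains. Tceal8 in NZO/HlLtJ males stood at 25.7, 24.9, 31 and 26.3 CPM on 44% fat, against 17.6, 12.7, 17.9 and 25.5 CPM on 10% fat. In NZO/HlLtJ females it stood at 20.8, 27.1, 21.6 and 24.3 CPM on 44% fat, against 16.5, 13.2, 17.8 and 17.3 CPM on 10% fat. A male on 10% fat at 25.5 CPM lay among the males on 44% fat, and the diets were apart in females. The log2 change was 0.54 (SE 0.13), with 0.55 in males and 0.53 in females. Tceal8 in CAST/EiJ males stood at 2.95, 2.66, 2.94 and 1.86 CPM on 44% fat, against 5.84, 5.05 and 3.37 CPM on 10% fat. In CAST/EiJ females it stood at 4.22, 3.24, 2.95 and 3.41 CPM on 44% fat, against 4.38, 3.6, 5.01 and 5.05 CPM on 10% fat.

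The CAST/EiJ males did not overlap between diets, the females did, and the log2 change was -0.63 (SE 0.14), with -0.51, -0.53 and -0.70 in the 3 identifier runs. Tceal8 in C57BL/6J males stood at 13.3, 18.7, 8.14 and 15.4 CPM on 44% fat, against 9.39, 6.88, 7.2 and 8.47 CPM on 10% fat. In C57BL/6J females it stood at 14, 11.8, 12.5 and 12.5 CPM on 44% fat, against 9.8, 9.44, 9.88 and 9.13 CPM on 10% fat. The females were apart, 1 male on 44% fat lay among those on 10% fat, and the log2 change was 0.60 (SE 0.13), with 0.50, 0.88 and 0.48 in the runs.

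Zak, the ribotoxic stress kinase, separated the diets in NZO/HlLtJ and little in the other strains. Zak in NZO/HlLtJ males stood at 20.6, 19.9, 24.9 and 21.1 CPM on 44% fat, against 14.7, 14.4, 11 and 16.3 CPM on 10% fat. In NZO/HlLtJ females it stood at 13.3, 19, 16.6 and 15.5 CPM on 44% fat, against 11.2, 11.5, 9.06 and 9.64 CPM on 10% fat. Neither sex overlapped, and the log2 change was 0.63 (SE 0.11), with 0.62 in males and 0.64 in females. Zak in CAST/EiJ males stood at 9.34, 9.15, 9.68 and 9.83 CPM on 44% fat, against 14.4, 10.5 and 11.1 CPM on 10% fat. In CAST/EiJ females it stood at 9, 5.95, 6.1 and 9.72 CPM on 44% fat, against 10.8, 7.68, 9.31 and 11 CPM on 10% fat. Only the CAST/EiJ males were apart, and the log2 change was -0.33 (SE 0.11), with -0.44, -0.25 and -0.12 in the runs.

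Zak in C57BL/6J males stood at 21.1, 22.9, 17.8 and 21.2 CPM on 44% fat, against 15.3, 25.9, 19.7 and 19 CPM on 10% fat. In C57BL/6J females it stood at 22.5, 15.3, 20 and 17.5 CPM on 44% fat, against 15, 18.2, 15.4 and 14.2 CPM on 10% fat. Both sexes overlapped, and the log2 change of 0.16 had a 95% interval of -0.06 to 0.38, with 0.52, -0.06 and 0.16 in the runs.

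Tstd1, the rhodanese-domain gene, was lower on 44% fat in NZO/HlLtJ and CAST/EiJ and higher in C57BL/6J. Tstd1 in NZO/HlLtJ males stood at 2.25, 4.56, 4.08 and 3.76 CPM on 44% fat, against 8.65, 10.6, 8.48 and 7.3 CPM on 10% fat. In NZO/HlLtJ females it stood at 9.35, 6.36, 5.61 and 9.11 CPM on 44% fat, against 10.3, 10.1, 10.2 and 9.53 CPM on 10% fat. Neither sex overlapped, with a wide gap in males and a narrow one in females, and the log2 change was -0.82 (SE 0.14), made of -1.24 in males and -0.40 in females. Tstd1 in CAST/EiJ males stood at 8.17, 10.4, 7.93 and 8.43 CPM on 44% fat, against 16.2, 10.3 and 10.6 CPM on 10% fat. In CAST/EiJ females it stood at 3.91, 5.4, 3.21 and 3.23 CPM on 44% fat, against 6.54, 7.37, 5.86 and 8.12 CPM on 10% fat. The females were apart, 1 male on 44% fat lay among those on 10% fat, and the log2 change was -0.66 (SE 0.15), with -0.86, -0.50 and -0.70 in the runs.

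Tstd1 in C57BL/6J males stood at 4.94, 4.77, 4.42 and 4.08 CPM on 44% fat, against 3.38, 3.49, 3.33 and 4.02 CPM on 10% fat. In C57BL/6J females it stood at 6.57, 4.18, 3.08 and 3.83 CPM on 44% fat, against 1.92, 3.01, 1.74 and 2.36 CPM on 10% fat. Both sexes were apart, by a small margin, and the log2 change was 0.66 (SE 0.15), with 1.14, 0.54 and 0.45 in the runs. The highest of these, 6.57 CPM, is the library with the raised macrophage genes, and without it the change was 0.53.

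**Figure D2:**
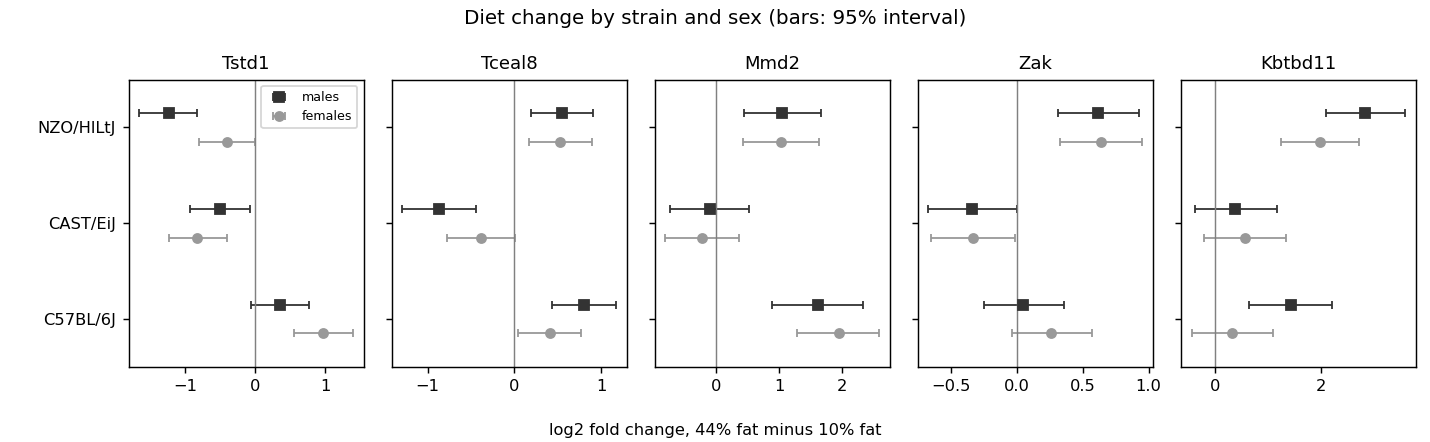
Log2 diet change, 44% minus 10% fat, of each member by strain, for males and females apart, with bars for the 95% interval of the edgeR fit over 47 libraries. Kbtbd11 in NZO/HlLtJ lies highest, at 2.83 in males and 1.97 in females, and Tstd1 in NZO/HlLtJ males lies lowest, at -1.24. In NZO/HlLtJ, differences between the sexes lie partly along the identifier runs.

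Strain levels did not choose the members and were tested. Averaged over sexes and diets, all 5 differed between NZO/HlLtJ and C57BL/6J, where 49.1% of genes tested were called, and all 5 between CAST/EiJ and C57BL/6J, where 67.9% were. Between NZO/HlLtJ and CAST/EiJ 4 of 5 differed, and 68.1% of genes tested did. With shares this high, the count of members called sets them little apart from other genes, and the sizes are what the data add. Every one of these 14 calls was also made in each refit that left out a library of the strains compared.

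Mmd2 had the largest strain differences. It averaged 21.1 ± 10.7 CPM in NZO/HlLtJ (n = 16), 50.6 ± 9.24 CPM in CAST/EiJ (n = 15) and 5.28 ± 5.75 CPM in C57BL/6J (SD, n = 16). CAST/EiJ was 13.2-fold above C57BL/6J (log2 3.72, SE 0.17, edgeR adjusted p = 3.44e-21), and every CAST/EiJ library was above every C57BL/6J library. NZO/HlLtJ was 5-fold above C57BL/6J (log2 2.32, SE 0.16, adjusted p = 5.24e-15) and 2.64-fold below CAST/EiJ (log2 -1.40, SE 0.15, adjusted p = 2.05e-10). Tceal8 averaged 21.3 ± 5.33 CPM in NZO/HlLtJ, 3.77 ± 1.11 CPM in CAST/EiJ and 11 ± 3.21 CPM in C57BL/6J. It was 5.6-fold higher in NZO/HlLtJ than in CAST/EiJ (log2 2.49, SE 0.10, adjusted p = 3.11e-24), with no overlap of libraries.

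Compared with C57BL/6J, Tceal8 was 1.94-fold higher in NZO/HlLtJ (log2 0.95, SE 0.09, adjusted p = 7.51e-12) and 2.89-fold lower in CAST/EiJ (log2 -1.53, SE 0.10, adjusted p = 1.78e-17), the second again with no overlap. The strain where Tceal8 was lower on 44% fat was also the strain where its level was lowest. Zak averaged 15.5 ± 4.6 CPM in NZO/HlLtJ, 9.57 ± 2.06 CPM in CAST/EiJ and 18.8 ± 3.35 CPM in C57BL/6J. Against C57BL/6J it was 1.25-fold lower in NZO/HlLtJ (log2 -0.32, SE 0.08, adjusted p = 0.000564) and 1.95-fold lower in CAST/EiJ (log2 -0.96, SE 0.08, adjusted p = 4.33e-14). It was 1.56-fold higher in NZO/HlLtJ than in CAST/EiJ (log2 0.64, SE 0.08, adjusted p = 2.19e-09). Libraries of the strains overlapped in each of these Zak pairs. On 10% fat Zak averaged 12.2 ± 2.62 CPM in NZO/HlLtJ and 17.8 ± 3.84 CPM in C57BL/6J (n = 8 each). On 44% fat these means were 18.9 ± 3.65 and 19.8 ± 2.67 CPM (n = 8 each), within the spread of both. The CAST/EiJ mean was 10.7 ± 2.04 CPM on 10% fat (n = 7), within the spread of NZO/HlLtJ, and 8.6 ± 1.61 CPM on 44% fat (n = 8).

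Tstd1 averaged 7.52 ± 2.72 CPM in NZO/HlLtJ, 7.71 ± 3.38 CPM in CAST/EiJ and 3.69 ± 1.21 CPM in C57BL/6J. It was 1.98-fold higher in NZO/HlLtJ (log2 0.99, SE 0.10, adjusted p = 9.41e-11) and 2.07-fold higher in CAST/EiJ (log2 1.05, SE 0.10, adjusted p = 9.15e-12) than in C57BL/6J. Between NZO/HlLtJ and CAST/EiJ the difference was -0.06 (95% interval -0.27 to 0.14, adjusted p = 0.599), and it was -0.12, -0.39 and 0.35 within the identifier runs. On 10% fat Tstd1 averaged 9.4 ± 1.15 CPM in NZO/HlLtJ and 2.91 ± 0.814 CPM in C57BL/6J (n = 8 each). On 44% fat the gap was narrower, 5.63 ± 2.53 and 4.48 ± 1.02 CPM (n = 8 each). On that diet NZO/HlLtJ males lay below C57BL/6J males (means 3.66 and 4.55 CPM, n = 4 each). NZO/HlLtJ females lay above C57BL/6J females (7.61 and 4.41 CPM, n = 4 each). CAST/EiJ averaged 9.27 ± 3.52 CPM on 10% fat (n = 7) and 6.33 ± 2.75 CPM on 44% fat (n = 8). Kbtbd11 averaged 4.21 ± 4.03 CPM in NZO/HlLtJ, 2.13 ± 1.09 CPM in CAST/EiJ and 1.19 ± 0.486 CPM in C57BL/6J. It was 2.61-fold higher in NZO/HlLtJ (log2 1.38, SE 0.19, adjusted p = 4.85e-08) and 1.76-fold higher in CAST/EiJ (log2 0.81, SE 0.19, adjusted p = 0.000247) than in C57BL/6J, and 1.48-fold higher in NZO/HlLtJ than in CAST/EiJ (log2 0.57, SE 0.18, adjusted p = 0.00661). On 10% fat the NZO/HlLtJ mean of Kbtbd11, 1.27 ± 0.696 CPM (n = 8), lay below the CAST/EiJ mean of 1.73 ± 0.871 CPM (n = 7), within the spread of both. On 44% fat these means were 7.15 ± 3.83 and 2.49 ± 1.2 CPM (n = 8 each). The averaged difference of Kbtbd11 between these strains thus came with the 44% fat libraries, on which the members were chosen.

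Within the identifier runs each of the 14 called strain differences kept its sign, for example 3.65, 3.71 and 3.86 for Mmd2 in CAST/EiJ minus C57BL/6J and 2.16, 2.80 and 2.69 for Tceal8 in NZO/HlLtJ minus CAST/EiJ. The value nearest to 0 was 0.12, in the first run for Kbtbd11 in NZO/HlLtJ minus CAST/EiJ, which was 1.33 and 0.39 in the other runs. Per kilobase of exon, the level of Tstd1 was 8.67 CPM per kb in NZO/HlLtJ, 8.89 in CAST/EiJ and 4.26 in C57BL/6J, and that of Mmd2 4.06, 9.74 and 1.02 CPM per kb in the same strain order. The level of Tceal8 was 8.31 CPM per kb in NZO/HlLtJ, 1.47 in CAST/EiJ and 4.29 in C57BL/6J, and that of Zak 1.52, 0.941 and 1.85 CPM per kb in the same order. Kbtbd11 was the lowest per kilobase in every strain, at 0.59, 0.298 and 0.167 CPM per kb in NZO/HlLtJ, CAST/EiJ and C57BL/6J. The sources used here do not say whether reads of each strain were aligned to that strain's own genome, and the part of this in the strain levels was not tested.

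Sex also moved the members, and not in the same way in each strain. Averaged over diets, Tstd1 was lower in males in NZO/HlLtJ and higher in males in CAST/EiJ. Mmd2 was lower in males in NZO/HlLtJ and C57BL/6J, and its CAST/EiJ values showed no such gap. Kbtbd11 was higher in males in CAST/EiJ, and Zak in NZO/HlLtJ and CAST/EiJ. Tceal8, although X-linked, passed the test in no strain. Members called were 3 of 5 in NZO/HlLtJ, 3 of 5 in CAST/EiJ and 1 of 5 in C57BL/6J, against 17.2%, 30.3% and 16.8% of genes tested.

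Tstd1 in NZO/HlLtJ males ran from 2.25 to 10.6 CPM with a median of 5.93, against 5.61 to 10.3 CPM and a median of 9.44 in females. That was 1.54-fold lower in males (log2 -0.62, SE 0.14, edgeR adjusted p = 0.00152), with overlap. By diet, the NZO/HlLtJ male and female means were 3.66 and 7.61 CPM on 44% fat and 8.76 and 10 CPM on 10% fat (n = 4 each). Tstd1 in CAST/EiJ males ran from 7.93 to 16.2 CPM with a median of 10.3, against 3.21 to 8.12 CPM and a median of 5.63 in females. That was 1.98-fold higher in males (log2 0.99, SE 0.15, adjusted p = 1.21e-06), with 1.18, 0.80 and 0.99 in the runs. In C57BL/6J males the median was 4.05 CPM and in females 3.04 CPM, and the difference of 0.35 (SE 0.15, adjusted p = 0.0951) did not pass. It passed without the C57BL/6J female with raised macrophage genes (0.48, adjusted p = 0.0159), without replicate 2 of the C57BL/6J females on 10% fat (0.43, adjusted p = 0.0417) and without the 5 libraries with Cpa1 (0.55, adjusted p = 0.0172).

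The opposite sex differences of Tstd1 were tested directly. A test of whether the sex difference varied among the 3 strains gave an edgeR adjusted p of 7.57e-07 for Tstd1 and 0.00297 for Mmd2, where 13.6% of genes tested were called. For Kbtbd11 it gave 0.0441, and for Tceal8 and Zak 0.363 and 0.661. The Kbtbd11 call was lost in 23 of 47 refits that left out 1 library, with adjusted p-values of 0.0505 to 0.075 in those, and without the 5 libraries with Cpa1 (adjusted p = 0.12). The 23 libraries were spread over the strains: in NZO/HlLtJ replicate 4 of the males on 44% fat, and in CAST/EiJ replicates 2 and 4 of the males on 44% fat and 1, 2 and 3 on 10% fat, and 1, 2 and 3 of the females on 44% fat and 2, 3 and 4 on 10% fat. In C57BL/6J they were replicates 2 and 3 of the males on 44% fat and 1, 3 and 4 on 10% fat, and 1, 2 and 3 of the females on 44% fat and 1, 2 and 4 on 10% fat.

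Mmd2 in C57BL/6J males ran from 1.15 to 5.96 CPM with a median of 1.51, against 2.46 to 24.1 CPM and a median of 5.93 in females. That was 2.78-fold lower in males (log2 -1.47, SE 0.24, adjusted p = 1.44e-05), with -1.67, -1.30 and -1.31 in the runs and -1.21 without the library with raised macrophage genes. Mmd2 in NZO/HlLtJ males ran from 8.42 to 30.8 CPM with a median of 15.5, against 14.7 to 47.2 CPM and a median of 23.2 in females. That was 1.61-fold lower in males (log2 -0.69, SE 0.21, adjusted p = 0.018), and the call was lost without replicate 4 of the NZO/HlLtJ females on 44% fat (-0.60, adjusted p = 0.0516). Mmd2 in CAST/EiJ males ran from 37.9 to 65.5 CPM and in CAST/EiJ females from 34.4 to 63 CPM, a difference of 0.03 (adjusted p = 0.937) that turned to -0.03 without the libraries with Cpa1.

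Kbtbd11 in CAST/EiJ males ran from 2.51 to 4.32 CPM with a median of 2.73, against 0.614 to 2.51 CPM and a median of 1.1 in females. That was 2.29-fold higher in males (log2 1.20, SE 0.27, adjusted p = 0.00059), with 1.21, 1.59 and 0.91 in the runs. The lowest male and the highest female both round to 2.51 CPM, and before rounding the sexes did not overlap. In NZO/HlLtJ its difference of 0.65 (SE 0.25, adjusted p = 0.0718) did not pass. It did pass without replicate 1 (0.75, adjusted p = 0.0409) or replicate 2 (0.75, adjusted p = 0.0377) of the NZO/HlLtJ males on 10% fat, or without replicate 4 of the NZO/HlLtJ females on 44% fat (0.92, adjusted p = 0.00529). In C57BL/6J the difference of Kbtbd11 was -0.10 (adjusted p = 0.851). That average joins opposite directions: the C57BL/6J male and female means were 0.659 and 1.04 CPM on 10% fat and 1.76 and 1.29 CPM on 44% fat (n = 4 each).

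Zak in NZO/HlLtJ males ran from 11 to 24.9 CPM with a median of 18.1, against 9.06 to 19 CPM and a median of 12.4 in females, 1.35-fold higher in males (log2 0.44, SE 0.11, adjusted p = 0.00308). Zak in CAST/EiJ males ran from 9.15 to 14.4 CPM with a median of 9.83, against 5.95 to 11 CPM and a median of 9.16 in females, 1.24-fold higher in males (log2 0.31, SE 0.11, adjusted p = 0.0367). The CAST/EiJ call of Zak was lost without any of 7 libraries, with values of 0.23 to 0.30 and adjusted p-values of 0.0538 to 0.147. These were replicate 1 of the CAST/EiJ males on 10% fat, replicates 3 and 4 of the males on 44% fat, and replicates 2 and 3 of the females on each diet. It was also lost without the libraries with Cpa1 (0.25, adjusted p = 0.0716) and with each strain fitted alone (0.30, adjusted p = 0.0666). In C57BL/6J the difference of Zak was 0.24 (adjusted p = 0.116). Tceal8 differed between males and females by 0.19 in NZO/HlLtJ (adjusted p = 0.31), -0.17 in CAST/EiJ (adjusted p = 0.411) and -0.07 in C57BL/6J (adjusted p = 0.789), and the last was 0.02 without the libraries with Cpa1. In NZO/HlLtJ only the first identifier run holds both sexes of a diet, and there the male minus female differences were -0.67 for Tstd1, -0.74 for Mmd2 and 0.36 for Zak.

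**Figure D3:**
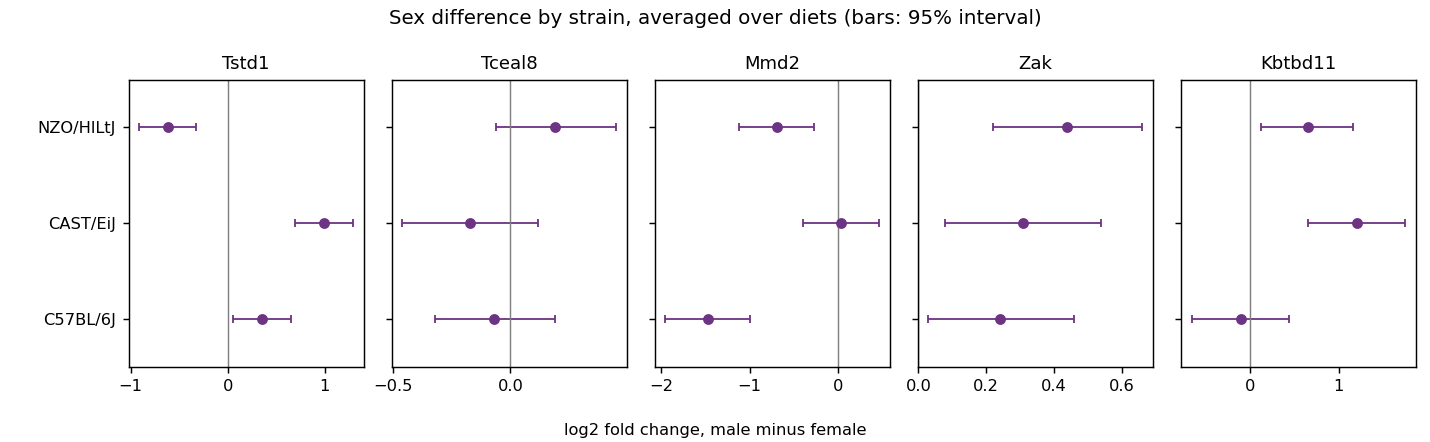
Log2 sex difference, male minus female and averaged over diets, of each member by strain, with bars for the 95% interval of the edgeR fit over 47 libraries. Tstd1 lies at -0.62 in NZO/HlLtJ and 0.99 in CAST/EiJ, and Mmd2 at -0.69 in NZO/HlLtJ, 0.03 in CAST/EiJ and -1.47 in C57BL/6J.

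Whether the diet change itself differed between males and females was tested within each strain, and 0 of 5 members passed in any strain by edgeR, DESeq2 or limma. Across all genes edgeR called 0.018% in NZO/HlLtJ, 0% in CAST/EiJ and 0.0841% in C57BL/6J, and at an unadjusted p under 0.05 it held 669 genes in CAST/EiJ, where DESeq2 called 14. At an unadjusted p under 0.05 there were 3 member results. Tstd1 had a diet change lower by 0.84 in NZO/HlLtJ males than in females (log2 -0.84, adjusted p = 0.453). Outside the first identifier run, NZO/HlLtJ males of a single diet shared a run with females of the opposite diet. In those libraries sex by diet cannot be told apart from the run. In C57BL/6J the male minus female values were -0.62 for Tstd1 (adjusted p = 0.853) and 1.10 for Kbtbd11 (adjusted p = 0.864).

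Between libraries of the same group the members varied by an SD of log2 CPM of 0.22 for Zak, 0.27 for Tceal8, 0.30 for Tstd1, 0.44 for Mmd2 and 0.51 for Kbtbd11. Deviations from the group mean describe what remains once strain, sex and diet are taken out. Over the 47 libraries those of Tceal8 and Mmd2 had a Pearson r of 0.60 and a Spearman rho of 0.58, and r was 0.46 without the 2 libraries farthest from the median. Mmd2 and Zak had an r of 0.43, which was 0.36 without the 2 farthest, and Mmd2 and Kbtbd11 an r of 0.39, which was 0.43. Tceal8 and Zak had an r of 0.31, which was 0.22. Tstd1 followed none of the other members, with r between -0.06 and 0.10. All members of a library share its depth, scaling and cell content, so these are descriptions.

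**Figure D4:**
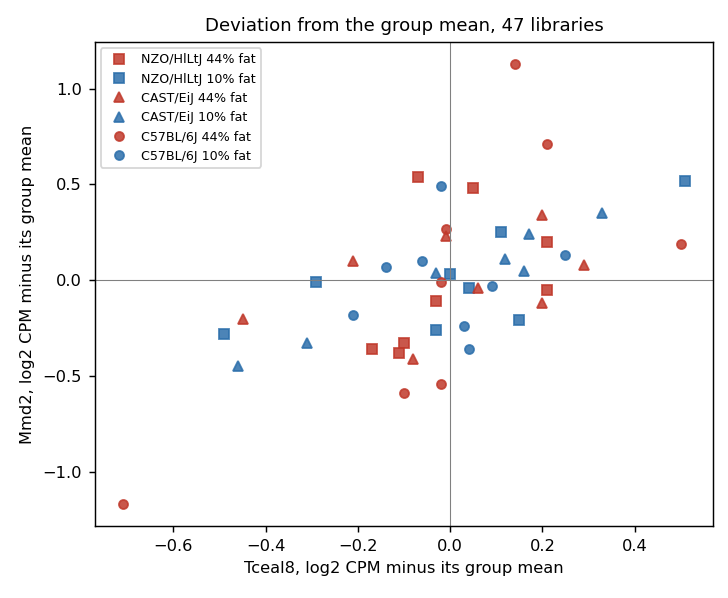
Deviation of log2 CPM from the group mean for Tceal8 (horizontal) and Mmd2 (vertical) in each of the 47 libraries, with marker shape for strain and colour for diet. Libraries with more Tceal8 than their group mean tended to hold more Mmd2, with r = 0.60 over all and 0.46 without the 2 farthest libraries.

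Cell type markers tracked these deviations in part. The summed hepatocyte markers had an r of -0.40 with Tceal8, -0.44 with Mmd2 and 0.31 with Tstd1, and these were -0.41, -0.41 and 0.24 without the 2 libraries farthest from the median of the marker deviation. The summed Kupffer cell markers had an r of -0.41 with Tceal8 and the lymphocyte markers -0.31, which were -0.28 and -0.23 without the 2 farthest. For Zak the adipocyte markers had an r of -0.36, which was -0.29 without the 2 farthest. Markers of macrophages other than Kupffer cells had an r of 0.41 with Tstd1 and 0.38 with Mmd2, but these rested on replicate 1 of the C57BL/6J females on 44% fat and were 0.14 and -0.05 without it. Without that library their r with Kbtbd11 was 0.37, against 0.23 with it. For Tstd1 the cholangiocyte markers had an r of 0.32, which was 0.14 without the same library. The pancreatic acinar sum lay between -0.04 and 0.08 with every member. Of 45 markers in 10 lists, diet was called for 1 higher and 3 lower in NZO/HlLtJ and for 1 higher and 1 lower in CAST/EiJ by edgeR, and the part of cell content in the members' deviations was not tested.

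The families and pathways of the members were followed in 5 lists holding 73 genes tested, the members left out. By diet edgeR called 3 of 73 higher in NZO/HlLtJ, 1 higher in CAST/EiJ and 0 in C57BL/6J, where 7 were at an unadjusted p under 0.05 and DESeq2 and limma also called 0. For a difference of the diet change among strains edgeR called 0, with 7 at an unadjusted p under 0.05, while DESeq2 and limma each called 1, Mapk14. Shares over all genes by edgeR were 5.64%, 0.895%, 0.991% and 0.048%, as above, so by edgeR the 73 relatives were called at about the background share or below. In CAST/EiJ DESeq2 called 4 of 73, Klhl13, Map2k7, Mapk14 and Mmd, where it called 325 genes in all.

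Among sulfur transfer genes 1 of 12 was called, Suox, which encodes sulfite oxidase. It averaged 163 ± 24.5 CPM on 44% fat and 121 ± 9.21 CPM on 10% fat in NZO/HlLtJ (SD, n = 8 each), a log2 rise of 0.43 (SE 0.08, adjusted p = 0.000849), where Tstd1 was lower. On 44% and 10% fat Suox averaged 121 and 100 CPM in C57BL/6J, where Tstd1 was higher, and 103 and 93.5 CPM in CAST/EiJ, without a call. A link between Suox and Tstd1 was not tested. Among 8 genes of the Mmd2 receptor family that were tested, Paqr3, a Golgi protein that anchors Raf kinase, was higher in NZO/HlLtJ (8.74 ± 1.39 CPM on 44% fat, 6.22 ± 1.08 CPM on 10% fat, log2 0.49, SE 0.11, adjusted p = 0.00589). Paqr7, a membrane progestin receptor, was higher there too (39.7 ± 17.1 CPM on 44% fat, 22.7 ± 6.92 CPM on 10% fat, log2 0.75, SE 0.20, adjusted p = 0.0204). These are 2 of 8 called higher, against 3.5% of all genes. Without a call, Paqr7 averaged 17.2 and 11.1 CPM on 44% and 10% fat in CAST/EiJ, and 36.3 and 28.4 CPM in C57BL/6J. Paqr3 averaged 5.25 and 4.25 CPM in CAST/EiJ and 6.58 and 6.28 CPM in C57BL/6J, also without a call. Among 24 entries of the stress kinase cascade around Zak, Mapk14, which encodes p38 alpha, was higher in CAST/EiJ (112 ± 7.69 CPM on 44% fat, n = 8, and 92.3 ± 3.3 CPM on 10% fat, n = 7, log2 0.28, SE 0.05, adjusted p = 0.000793). That is the strain where Zak was lower on 44% fat, and a link between Mapk14 and Zak was not tested.

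None of the 8 Tceal and Bex genes tested and none of the 21 kelch-BTB and Cullin 3 genes was called for diet by edgeR in any strain. At an unadjusted p under 0.05 edgeR held 3 Tceal and Bex genes in NZO/HlLtJ and 1 in each other strain, and 2 and 1 of the kelch-BTB genes likewise. DESeq2 and limma called 0 as well, apart from Klhl13 in CAST/EiJ, called by DESeq2. Median diet changes of the 5 lists in NZO/HlLtJ were 0.07 for sulfur transfer, -0.15 for Tceal and Bex, 0.08 for the receptor family, 0.05 for the stress kinases and 0.03 for kelch-BTB, against 0 for all genes tested.

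Genes next to the members on the chromosome did not pass the diet test. Of 20 neighbours, 2 on each side of each member, edgeR, DESeq2 and limma called 0 for diet in each strain and 0 for a difference of the diet change among strains. At an unadjusted p under 0.05 edgeR held 3 in NZO/HlLtJ, 0 in CAST/EiJ, 1 in C57BL/6J and 0 for the difference. Over all genes tested edgeR called 5.64%, 0.895%, 0.991% and 0.048% in the same order. With shares this low, 0 of 20 sets the neighbours little apart from other genes. Usf1, which encodes a transcription factor that binds the E-box and whose end overlaps Tstd1, had a log2 diet change of -0.16 in NZO/HlLtJ (adjusted p = 0.148), against -0.82 for Tstd1. Between strains the neighbours differed often, as genes at large did: 5 were higher and 9 lower in NZO/HlLtJ than in C57BL/6J, 7 higher and 3 lower in CAST/EiJ than in C57BL/6J, and 4 higher and 11 lower in NZO/HlLtJ than in CAST/EiJ. Of all genes tested 49.1%, 67.9% and 68.1% were called in these comparisons.

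Genes whose log2 CPM ran most like each member over the 47 libraries were found among 10302 or 10303 genes. For Tceal8 these were Tsnax and Ly6e, each with r = 0.95, and Wdr41 with 0.94, and for Mmd2 they were Bckdhb (0.93), Lyplal1 (0.92) and Dcaf4 (0.91). For Zak they were Col5a3, Lgals1 and Anxa7, each with 0.88, for Tstd1 Dhx57 (0.83), Tsr3 (0.74) and Mybbp1a (0.73), and for Kbtbd11 Parva (0.78), Atg4a (0.77) and Cog4 (0.73). Likeness over all libraries largely follows the strains, which share many differences. By deviations from the group mean the closest were Cryl1 for Zak (0.72), Rragd and Ndfip2 for Mmd2 (0.71 each), Capzb for Tstd1 (0.63) and Ddah1 for Kbtbd11 (0.61).

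The 29 genes named by either likeness were then read for diet, as a description. Likeness over all libraries takes in the diet change of the member, and likeness by deviations does not. In NZO/HlLtJ 17 were called higher and 1 lower, where 5.64% of all genes tested were called. In C57BL/6J 2 were called higher, with 14 at an unadjusted p under 0.05, where 0.991% of all genes were called. In CAST/EiJ edgeR called 0, with 1 at an unadjusted p under 0.05, where 0.895% of all genes were called. Calls of the other tools were not counted for these genes. Ddah1, which encodes an enzyme that degrades asymmetric dimethylarginine and is nearest to Kbtbd11 by deviations, had a log2 change of 1.27 in NZO/HlLtJ (SE 0.13, adjusted p = 1.4e-07). Lgals1, which encodes galectin-1 and is near both Zak and Kbtbd11, had 1.41 (SE 0.24, adjusted p = 0.00035), and Col5a3, which encodes a collagen chain, had 1.38 (SE 0.22, adjusted p = 0.000132). In C57BL/6J Lgals1 had 0.89 (edgeR adjusted p = 0.0526) and Col5a3 0.79 (adjusted p = 0.0578), just short of a call. The gene called lower in NZO/HlLtJ was Dhx57 (-0.31, adjusted p = 0.00171), nearest to Tstd1.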

How the data were processed

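Liver RNA of 47 libraries was measured by polyadenylated RNA sequencing with paired-end reads, per the labels' protocols. The authors deposited 1 table of expected counts (20.3% of values not whole, tolerance 1e-06) and 1 of variance-stabilized log2 values. Per the submitters' processing notes, the build was GRCm38 and DESeq2 was used. Aligner, counter, strand setting and annotation: not given in the sources used here.

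Rounded expected counts went into edgeR 4.0.16 under R 4.3.3 (filterByExpr over 12 groups, TMM scaling, robust quasi-likelihood test, 35 residual degrees of freedom). The fit took all 47 libraries, and p-values were Benjamini-Hochberg adjusted over 16650 genes, with calls under 0.05. A standard error is the log2 fold change divided by the square root of F. CPM are TMM scaled, and log2 CPM has a prior count of 2. Alternatives were DESeq2 1.42.0, limma 3.58.1 on the deposited log2 values, other scaling and filters, identifier run as a covariate, each strain alone and each library left out. The scripts were checked on simulated data. Depth was 21.6 M to 47.8 M counts per library.

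The members and lists were chosen with earlier results of these data known. Genes named are the 5 members, up to 3 called genes of each family list, the 2 nearest tested genes on each side, and the 3 most like each member by each measure, at an average of at least 1 log2 CPM and without provisional names; 1 of these genes is not reported here. Markers and overlapping genes were named beside the results they touch. Replicates were numbered in accession order, so they pair no samples.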

Additional observations from a re-analysis of the deposited data

Results flagged for a closer look

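The sex difference of 3 members varied among the strains in a direct edgeR test over all genes, with an adjusted p of 7.57e-07 for Tstd1, 0.00297 for Mmd2 and 0.0441 for Kbtbd11. Averaged over diets, the male minus female log2 difference of Tstd1 was -0.62 in NZO/HlLtJ, 0.99 in CAST/EiJ and 0.35 in C57BL/6J. In the same strain order it was -0.69, 0.03 and -1.47 for Mmd2, and 0.65, 1.20 and -0.10 for Kbtbd11. Tstd1 and Mmd2 passed this test in every refit without 1 library, with adjusted p-values up to 3.07e-06 and 0.0082, and Kbtbd11 did not. In 55 groups of 4 libraries, 11 for each member, no library lay farther from the others than Dixon's 95% critical value allows, where chance alone passes it in about 1 group in 20.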

How the results depend on the processing

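Of 535 member values under another setting, 510 counted as unchanged. Of the rest, 3 lost and 3 gained a call, 11 changed sign and 8 moved beyond the replicate spread. Unchanged meant the same direction and call, or for diet changes, which carry no call, a value within the replicate spread. Small diet changes could turn sign within that spread, as Zak in C57BL/6J did in run 2 (-0.06) and Mmd2 in CAST/EiJ in run 3 (0.02). The refits without 1 library are not among the 535. In those refits sex calls were lost for Kbtbd11 (23 refits), Zak (7) and Mmd2 (1), and gained for Kbtbd11 (3) and Tstd1 (2). No paired analysis was possible because the labels carry no replicate numbers. Leaving out the libraries with Cpa1, or the library with raised macrophage genes, was chosen after seeing the data. Counts of called genes depended on the tool, and the cause was not tested. The CAST/EiJ diet gave 325 with DESeq2, 99 with the run covariate, 77 with each strain alone and 30 to 417 without 1 library. The C57BL/6J diet gave 336 with DESeq2, 4 alone, 61 without the Cpa1 libraries and 56 to 369 without 1 library, and the NZO/HlLtJ diet 532 to 1178. The difference of the diet change among strains gave 154 with DESeq2, 59 with limma, 19 with a stricter filter and 6 to 72 without 1 library. Sex by diet gave, in NZO/HlLtJ, 42 with DESeq2, 7 with limma, 9 without the Cpa1 libraries and 2 to 18 without 1 library. In CAST/EiJ it gave 14 with DESeq2, 1 alone, 4 without the Cpa1 libraries and 0 to 3 without 1 library. In C57BL/6J it gave 0 with limma, 0 alone, 1 without the Cpa1 libraries and 3 to 17 without 1 library.

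Member values counted as changed in sign were mostly sex by diet values near 0. In NZO/HlLtJ these were Tceal8 at -0.08 and Zak at 0.01 with the run covariate, and Mmd2 at 0 and Zak at 0.01 with limma. In CAST/EiJ Zak was 0 with the run covariate and 0.01 with limma, and in C57BL/6J Mmd2 was 0.05 and Zak 0.01 without the Cpa1 libraries. Without 1 library, sex by diet spanned -0.19 to 0.23 for Mmd2, -0.13 to 0.21 for Tceal8 and -0.13 to 0.07 for Zak in NZO/HlLtJ, -0.11 to 0.14 for Zak, -0.08 to 0.30 for Mmd2 and -0.43 to 0.15 for Kbtbd11 in CAST/EiJ, and -0.59 to 0.20 for Mmd2 in C57BL/6J. The sex difference without 1 library spanned -0.06 to 0.13 for Mmd2 in CAST/EiJ and -0.15 to 0.03 for Tceal8 in C57BL/6J; without the Cpa1 libraries these were -0.03 and 0.02. The CAST/EiJ diet change of Kbtbd11 was -0.33 in identifier run 1. With DESeq2 and limma the NZO/HlLtJ sex difference of Kbtbd11 passed (0.66, adjusted p = 0.0486, and 0.47, adjusted p = 0.0111). On the variance-stabilized log2 values, which compress low levels, the diet change of Kbtbd11 was 1.39 in NZO/HlLtJ and 0.35 in C57BL/6J, and that of Mmd2 1.05 in C57BL/6J. Depth limits Kbtbd11 most, with as few as 18 counts in a library.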
